A study of Mus musculus with 24 samples.

Results

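The cytochrome P450 genes of families 1 to 3 were described in the livers of mice treated with IUB288, a glucagon receptor agonist. Rows of the gene table were taken by symbol: Cyp, a family number from 1 to 3, a subfamily letter and a gene number. Of 22355 genes, 42 rows matched, and 32 of them had a mean of at least 0.5 CPM (counts-per-million, from the total count of each library) over the 24 libraries. These 32 genes are the members. The lowest member was Cyp3a44, at 1.32 CPM, and the highest row left out was Cyp2g1, at 0.497 CPM. The RefSeq annotation of GRCm38.p6 holds 57 genes with such a symbol, and the other 15, among them Cyp2d26, Cyp2d22 and Cyp3a25, were not analysed here.

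The mice had diet-induced obesity and were treated for 4 days, and whole liver was taken from 8 mice in each of 3 groups. One group received vehicle and was sampled 22 h after the last injection. The other groups received IUB288 and were sampled 4 h or 22 h after the last injection. All 3 groups shared the obesity and the 4 days of injections. The strain, sex and age of the mice and the dose are not given in the labels used here. Vehicle livers came from 22 h only, so in the 4 h comparison the drug and the hours since injection cannot be told apart. The 8 vehicle livers served for the 4 h and the 22 h comparison alike. Each sample is labelled as a numbered replicate of its group, and each was taken as a separate mouse.

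P450 enzymes are heme proteins of the endoplasmic reticulum that insert oxygen into drugs, toxins, steroids, bile acids, vitamins and fatty acids, with electrons passed on by P450 reductase. Families 1 to 3 hold most of the drug-oxidizing forms, and hepatocytes, above all those near the central vein, carry them at high levels. Their genes are controlled by the receptors CAR (Nr1i3), PXR (Nr1i2) and AHR (Ahr), by liver factors such as HNF4A, and by the pattern of growth hormone secretion, which makes several of them differ between male and female mice.

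Many of these genes are near-identical copies in tandem clusters, so their counts are uncertain where a read could come from either copy. Of 65 pairs of members within a subfamily, 12 had coding sequences at least 90% identical (91.1% to 98.4%, GENCODE vM21 transcripts), and 18 of the 32 members belong to such a pair. The closest were Cyp2a4 and Cyp2a5 (98.4%), Cyp2a12 and Cyp2a22 (97.0%), Cyp2c37 and Cyp2c50 (96.1%), and Cyp3a11 and Cyp3a44 (94.9%). As a measure of what a short read can tell apart, every stretch of 50 bases of a member's transcript was looked up in all other genes. Of the 32 members, 19 shared over 10% of their stretches with another gene, Cyp2c40 at 72.1% the most. Cyp2a5 shared 40.8% and Cyp2a4 38.0%, so most stretches of either had no exact match in another gene. Only exact matches were looked up, so this does not show that reads of the copies were told apart. In Cyp2f2, Cyp3a13, Cyp2r1, Cyp2c23, Cyp2c70 and Cyp1b1 no stretch was shared. How the reads of such stretches were counted is not given in the sources used here.

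**Figure D1:**
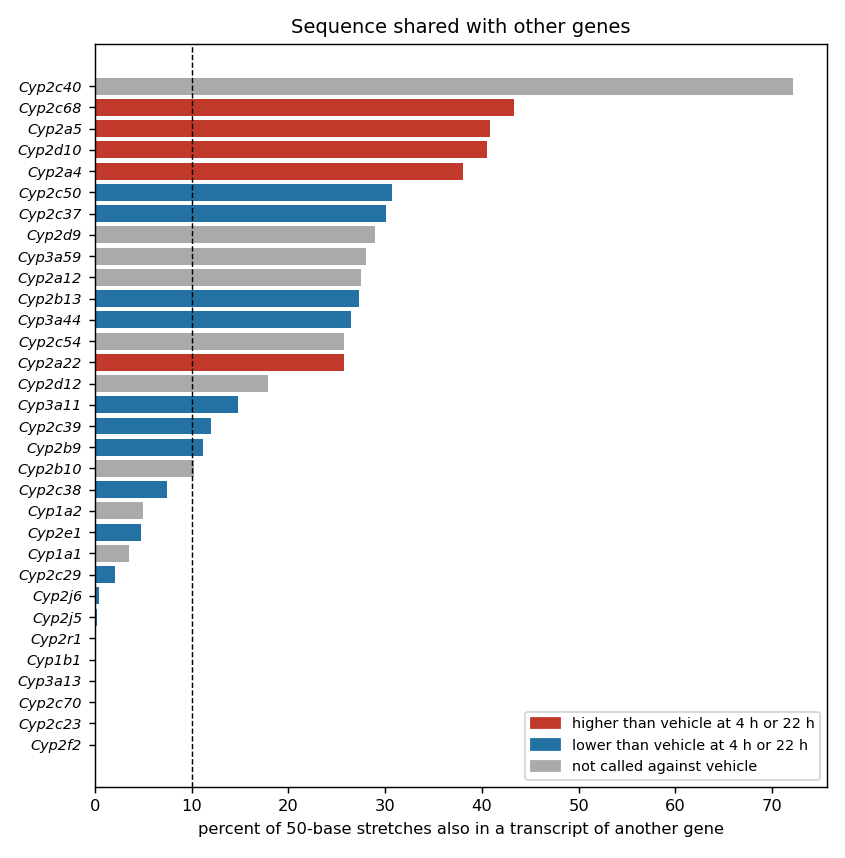
Percent of the 50-base stretches of each member's transcript that also occur in a transcript of another gene (x axis), with 1 bar per member. Red bars mark members called higher than vehicle at 4 h or 22 h, blue bars members called lower and grey bars members not called, and the dashed line marks 10%. Cyp2c40 reaches 72.1%, and 5 of the 6 members called higher lie beyond the line, while Cyp3a13 is at 0.

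The copies also resemble each other before the first listed transcription start. Of the 32 members, 29 matched the RefSeq promoter table (GRCm38.p6), in which the 250 bases before the first listed start were compared. The promoters of Cyp2b9 and Cyp2b13 were 99.2% identical and those of Cyp2a4 and Cyp2a5 98.4%. Those of Cyp2c40 and Cyp2c68 were 95.0% identical over 218 aligned positions. A motif present in both promoters of such a pair is therefore not 2 separate cases. The Cyp2a and Cyp2b pairs are shown because the Cyp2a pair was higher after IUB288 and the Cyp2b pair lower at 4 h. Cyp3a11 and Cyp3a44 are shown because both were lower. They were chosen after the values were seen. Each is printed 5′ to 3′ on the gene's strand, and ends where RefSeq bounds the gene if that is reached first. That leaves 191 bases for Cyp2b9, 143 for Cyp2b13 and 233 for Cyp3a44. The 99.2% of Cyp2b9 and Cyp2b13 therefore also covers bases inside the genes as RefSeq bounds them. Capitals mark AGGTCA, the core site of nuclear receptors, and GTTAAT, a core of HNF1 sites, on either strand.
The Cyp2a4 promoter is chr7:26306942-26307191 on the plus strand and that of Cyp2a5 is chr7:26835089-26835338, also plus.
Cyp2a4: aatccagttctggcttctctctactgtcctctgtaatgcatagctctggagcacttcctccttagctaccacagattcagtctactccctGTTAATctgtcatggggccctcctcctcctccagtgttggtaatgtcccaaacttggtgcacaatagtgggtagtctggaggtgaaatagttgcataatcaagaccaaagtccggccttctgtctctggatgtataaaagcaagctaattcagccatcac
Cyp2a5: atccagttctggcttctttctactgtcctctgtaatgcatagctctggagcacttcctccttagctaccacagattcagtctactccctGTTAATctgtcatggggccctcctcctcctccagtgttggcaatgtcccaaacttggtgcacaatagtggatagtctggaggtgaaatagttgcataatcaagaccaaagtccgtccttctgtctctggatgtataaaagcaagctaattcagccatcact
The Cyp2b9 promoter is chr7:26173159-26173349 on the plus strand and that of Cyp2b13 is chr7:26061245-26061387, also plus.
Cyp2b9: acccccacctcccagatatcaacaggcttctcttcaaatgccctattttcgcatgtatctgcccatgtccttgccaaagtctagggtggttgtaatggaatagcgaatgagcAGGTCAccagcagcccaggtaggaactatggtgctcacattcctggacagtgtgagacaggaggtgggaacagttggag
Cyp2b13: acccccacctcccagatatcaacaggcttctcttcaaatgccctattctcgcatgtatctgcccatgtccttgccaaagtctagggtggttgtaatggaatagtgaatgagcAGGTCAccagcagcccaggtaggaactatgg
The Cyp3a11 promoter is chr5:145879855-145880104 on the minus strand and that of Cyp3a44 is chr5:145805892-145806124, also minus.
Cyp3a11: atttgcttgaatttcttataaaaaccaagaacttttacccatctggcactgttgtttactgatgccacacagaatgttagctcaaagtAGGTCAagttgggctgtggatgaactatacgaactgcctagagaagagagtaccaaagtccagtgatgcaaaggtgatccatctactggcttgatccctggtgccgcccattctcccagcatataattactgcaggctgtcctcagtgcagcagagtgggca
Cyp3a44: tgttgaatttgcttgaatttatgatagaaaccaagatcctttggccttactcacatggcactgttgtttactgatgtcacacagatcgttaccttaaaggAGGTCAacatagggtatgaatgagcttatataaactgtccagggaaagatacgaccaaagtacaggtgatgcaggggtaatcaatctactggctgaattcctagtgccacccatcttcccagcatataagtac
AGGTCA on either strand was present in 10 of the 29 member promoters and in 13.8% of all 27025 promoters of the same length. GTTAAT was present in 4 of the 29, which were Cyp2a4, Cyp2a5, Cyp2c40 and Cyp2c68, and in 6.52% of all. GCGTG, the core of AHR sites, was present in 4 of 29 against 28.2%, and TGACG, the short core of CREB sites, in 1 of 29 against 17.9%. TGACGTCA, a full CREB site, TTATGTAA, a site of the clock factors DBP, TEF and HLF, and TTGCGCAA, a C/EBP site, were present in 0 of 29, against 1.62%, 0.862% and 0.17% of all promoters. TGACGTCA contains TGACG, and no other motif searched holds another.

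Library totals ran from 13985780 counts (vehicle mouse 7) to 44070917 counts (vehicle mouse 1). Hepatocyte markers were abundant in all 24 livers, with Alb between 36300 and 82410 CPM. The first vehicle library stood apart, with 1432 CPM of Ucp1, a brown fat gene, against at most 0.5902 CPM in the other 23. Without it, 2 members were called higher and 14 lower at 4 h, 6 higher and 14 lower at 22 h, and 7 higher and 1 lower between the times. Hepatocyte markers (6 tested) counted 2 higher and 3 lower at both times, and their sum lay between 69630 and 104900 CPM in vehicle livers, between 60670 and 80060 after 4 h and between 52480 and 74190 after 22 h. Of the markers of other cell types, 3 of 7 Kupffer cell, 3 of 6 stellate and 2 of 6 endothelial genes were lower at 4 h, and 5 of 7, 5 of 6 and 6 of 6 at 22 h, with 0 higher. For Kupffer cells the sum lay between 182.5 and 580.4 CPM in vehicle livers, between 154.3 and 272.5 after 4 h and between 67.25 and 300.1 after 22 h. In the same order, sums were 627.2 to 1136, 342.5 to 619 and 190.7 to 572.9 for stellate cells, and 249.5 to 442.3, 238.6 to 314.8 and 114.3 to 292.5 for endothelium. Bile duct and lymphocyte markers counted 2 of 5 and 3 of 5 lower at both times, and erythroid markers 1 higher and 4 lower of 5. Of all genes, 22.5% were lower at 4 h and 19.2% at 22 h. None of these genes was at 0 in any library, while Ucp1, Adipoq and Cox8b of the brown fat list were at 0 in some libraries of each group. Their part in the P450 results was not tested. In whole liver, fewer cells of a type and less RNA per cell cannot be told apart.

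Together the 32 members made up 1.85% ± 0.273 (SD, n = 8) of all counts in vehicle livers, with a range of 1.59% to 2.34%. At 4 h the share was 1.0% ± 0.0762 (n = 8; 0.913% to 1.1%), and at 22 h it was 1.28% ± 0.0634 (n = 8; 1.22% to 1.37%). All 16 treated livers lay below all 8 vehicle livers, and all 22 h livers lay above all 4 h livers. Cyp2e1 alone was 43.2% of the sum in vehicle, 30.6% at 4 h and 36.4% at 22 h. Cyp3a11 went from 19.6% to 12.2% and 6.78% of the sum, and Cyp2a5 from 2.37% to 8.0% and 10.2%. On the log2 scale the mean sum changed by -0.89 at 4 h and -0.53 at 22 h. Without Cyp2e1 these were -0.60 and -0.37.

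**Figure D2:**
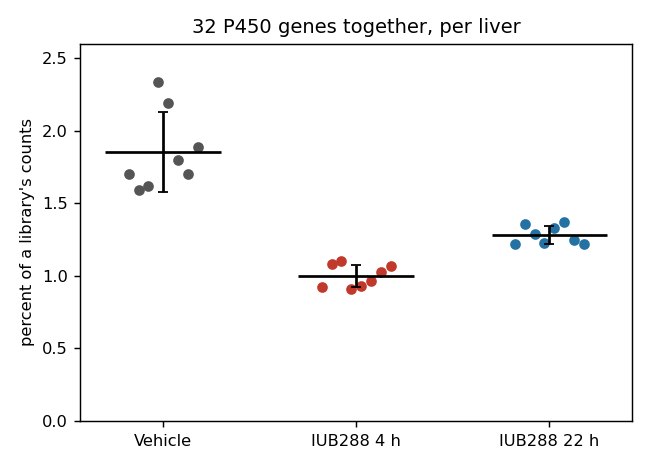
Share of each library's counts that fell in the 32 members (y axis, percent), with 1 point per liver and 8 livers per group. Black bars give the mean and the SD, and the vehicle livers (1.59% to 2.34%) lie above all treated livers (0.913% to 1.37%).

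All 32 members passed the filter on low counts and were tested in limma-voom among 11508 genes, with Benjamini-Hochberg adjusted p under 0.05 as the call. At 4 h against vehicle, 2 members were higher (6.25%, beside 21.7% of all genes), 13 were lower (40.6%, beside 22.5%) and 17 were not called. In all, 46.9% of the members and 44.2% of all genes were called. The median log2 fold change was -0.31 over the members and -0.07 over all genes. At 22 h against vehicle, 6 were higher (18.8%, beside 17.6%), 14 were lower (43.8%, beside 19.2%) and 12 were not called. That is 62.5% of the members and 36.8% of all genes, with medians of -0.38 and -0.02. At 22 h against 4 h, 6 were higher (18.8%, beside 14.3%), 1 was lower (3.12%, beside 15%) and 25 were not called, 21.9% called beside 29.3% of all genes. Here the medians were 0.14 and -0.02. The share of members lower than vehicle was above that of all genes at both times, the share higher was below it at 4 h, and the share higher at 22 h was near it. Without 22 h mouse 6, 4 members were higher at 4 h, and without 4 h mouse 4, 2 were lower at 22 h than at 4 h. Among the 13 members with at most 10% of their stretches shared, the counts were 0 higher and 6 lower at 4 h and 1 higher and 8 lower at 22 h, so 5 of the 6 higher calls at 22 h were of members that share more. That limit of 10% was chosen after seeing the data.

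**Figure D3:**
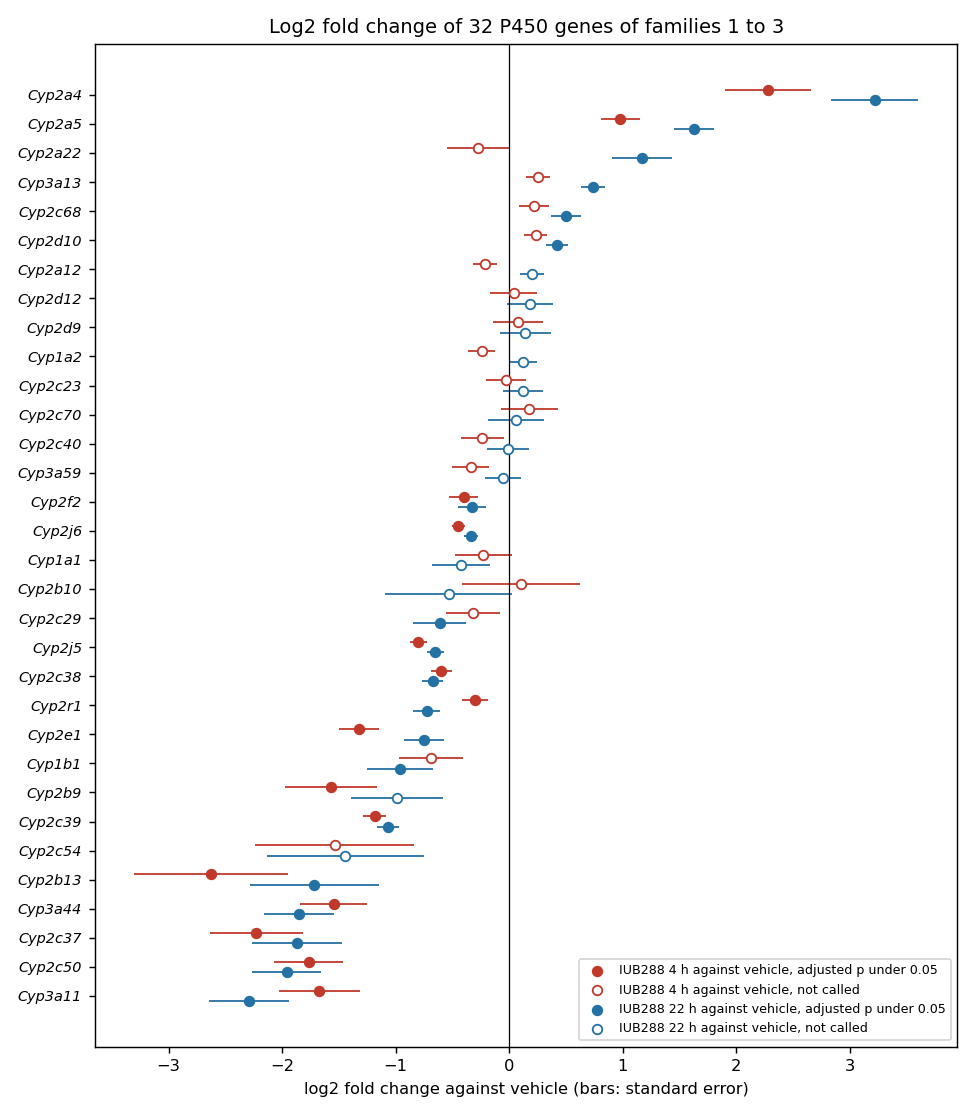
Log2 fold change against vehicle (x axis) with its standard error for all 32 members at 4 h (red) and 22 h (blue), ordered by the 22 h value. Filled points passed an adjusted p of 0.05 in limma-voom and open points did not. Cyp2a4 is at the top (2.28 and 3.22) and Cyp3a11 at the bottom (-1.67 and -2.29).

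Cyp2e1, which oxidizes ethanol, acetone and paracetamol, was the most abundant member in every group. It had 8009 ± 1953 CPM in vehicle (SD, n = 8; lowest 5646, median 8066, highest 11500). At 4 h it had 3066 ± 660.5 (2007, 3145, 4041), and at 22 h 4675 ± 1088 (3332, 4606, 6789). Every 4 h liver was below every vehicle liver, while the 22 h livers overlapped both other groups. The log2 fold change was -1.32 ± 0.18 (SE) at 4 h (limma-voom adjusted p = 1.21e-06) and -0.75 ± 0.18 at 22 h (adjusted p = 0.00208). From 4 h to 22 h Cyp2e1 rose by 0.57 ± 0.17 (adjusted p = 0.0144). With running numbers 1 to 12 alone this rise was 0.58 and not called (limma-voom adjusted p = 0.149). With 13 to 24 alone it was 0.59 and not called (adjusted p = 0.106). The 22 h call against vehicle was also lost with 1 to 12 alone (-0.70, adjusted p = 0.0906). Fewer samples enter these fits. Cyp2e1 lies at chr7:140763819-140774990 (RefSeq, GRCm38.p6), away from the other Cyp2 genes of that chromosome, and shared only 4.76% of its stretches with other genes.

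Cyp3a11, the main CYP3A drug oxidase of mouse liver and a target of PXR, fell the most at both times among the 12 members of highest mean CPM. Vehicle livers held 3635 ± 694.5 CPM (SD, n = 8; lowest 2778, median 3523, highest 4698). The 4 h livers held 1217 ± 509.8 (353.4, 1231, 1873) and the 22 h livers 870.5 ± 436.8 (227.4, 1002, 1380). No treated liver reached the lowest vehicle liver, and the spread among treated livers was wide, with 22 h mice 6 and 7 at 230.7 and 227.4 and the others at 745.7 or more. The log2 fold changes were -1.67 ± 0.35 at 4 h (limma-voom adjusted p = 0.000425) and -2.29 ± 0.35 at 22 h (adjusted p = 1.91e-05). Between the times the difference was -0.62 ± 0.34 and was not called (adjusted p = 0.182).

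Of the 4 Cyp3a members, 2 were lower at both times, and Cyp3a13 was higher at 22 h. Cyp3a44, a female-predominant form, had 2.43 ± 0.650 CPM in vehicle (lowest 1.592, median 2.363, highest 3.79), 0.804 ± 0.373 at 4 h (0.296, 0.9163, 1.307) and 0.724 ± 0.375 at 22 h (0.1705, 0.8149, 1.174). No treated liver overlapped vehicle, and its log2 fold changes were -1.54 ± 0.30 and -1.85 ± 0.31 (limma-voom adjusted p = 0.000135 and 5.75e-05). Cyp3a44 rested on 6 to 98 counts a library and is 94.9% identical to the far more abundant Cyp3a11, so its values are uncertain. Cyp3a13 shared no stretch with another gene and went the other way, from 272.6 ± 22.41 CPM (230.3, 275.4, 302.8) to 315.4 ± 41.81 (258.4, 313.2, 371.4) and 456.5 ± 104.0 (342.2, 433.8, 670.5). All 22 h livers were above all vehicle livers (log2 fold change 0.74 ± 0.11, adjusted p = 8.72e-06). At 4 h its 0.26 ± 0.10 missed the threshold (adjusted p = 0.0509). Cyp3a59 had 68.26 ± 16.94, 52.45 ± 14.40 and 64.43 ± 11.80 CPM and was not called against vehicle (adjusted p = 0.0944 and 0.826).

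The Cyp2c genes oxidize drugs, and several turn arachidonic acid into epoxides that act on blood vessels. Of the 10 members, 0 were higher and 4 lower at 4 h, and 1 was higher and 5 lower at 22 h. Of these, 9 lie in a cluster at chr19:39287044-40187286, and Cyp2c23 lies apart at chr19:44005022-44029256. Cyp2c37, Cyp2c50 and Cyp2c54, which are 95.1% to 96.1% identical in pairs, had the lowest fitted log2 values of the subfamily.

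Cyp2c50 had 504.1 ± 274.8 CPM in vehicle (SD, n = 8; lowest 182.3, median 461.8, highest 970.0), 130.8 ± 42.91 at 4 h (59.62, 131.2, 190.2) and 114.6 ± 29.98 at 22 h (59.31, 115.1, 149.9). The 22 h livers were all below vehicle, and 1 of the 4 h livers (190.2) exceeded the lowest vehicle liver. Cyp2c50 fell by 1.77 ± 0.31 and 1.96 ± 0.31 on the log2 scale (limma-voom adjusted p = 4.05e-05 and 2.52e-05). Cyp2c37 had 140.8 ± 94.02 CPM (46.24, 116.4, 299.3), 29.71 ± 18.23 (9.032, 26.89, 60.91) and 33.27 ± 10.59 (20.14, 34.51, 50.03). Its groups overlapped at the edges, with log2 fold changes of -2.23 ± 0.41 and -1.87 ± 0.40 (adjusted p = 9.09e-05 and 0.000732). Cyp2c54 had 65.75 ± 63.78 CPM (4.528, 51.38, 190.7), 16.76 ± 10.72 (3.224, 15.45, 33.77) and 16 ± 8.813 (6.333, 12.95, 30.91). Its -1.54 ± 0.70 and -1.44 ± 0.69 were not called (adjusted p = 0.0765 and 0.105). Vehicle livers differed widely among themselves in these genes. Vehicle mice 4 and 5 were the highest in Cyp2c50 (970.0 and 796.0) and Cyp2c37 (299.3 and 261.8), and mice 2 and 3 the lowest in Cyp2c50 and Cyp2c54. Without vehicle mouse 2 the Cyp2c54 values were -2.0 at 4 h (adjusted p = 0.0102) and -1.90 at 22 h (adjusted p = 0.0157). Without vehicle mouse 3 they were -1.84 (adjusted p = 0.0317) and -1.74 (adjusted p = 0.0459). In the other direction they went to -1.20 at 4 h (adjusted p = 0.162, without 4 h mouse 6) and -1.14 at 22 h (adjusted p = 0.179, without vehicle mouse 4).

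Cyp2c38 and Cyp2c39, a neighbouring pair of arachidonic acid epoxygenases at 94.2% coding identity, varied less among mice. The RefSeq span of Cyp2c39 (chr19:39347346-39569568) covers Cyp2c38 (chr19:39389556-39463103), so reads there are uncertain as well. Cyp2c38 had 178.9 ± 18.06 CPM in vehicle (144.1, 186.2, 198.6), 114.3 ± 11.50 at 4 h (96.65, 114.9, 129.4) and 112.0 ± 20.13 at 22 h (79.74, 115.3, 137.6). Cyp2c39 had 10.72 ± 1.383 (8.396, 10.87, 12.34), 4.49 ± 0.499 (3.716, 4.447, 5.328) and 4.97 ± 0.477 (4.545, 4.791, 5.9). In both, no treated liver overlapped vehicle at either time. Cyp2c38 fell by 0.60 ± 0.09 and 0.67 ± 0.09 on the log2 scale, and Cyp2c39 fell by 1.19 ± 0.10 and 1.06 ± 0.10 (limma-voom adjusted p = 7.61e-06, 3.65e-06, 5.32e-10 and 8.66e-09).

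Cyp2c29, another epoxygenase, had 546.9 ± 207.7 CPM in vehicle (228.8, 550.5, 845.1), 402.1 ± 105.9 at 4 h (271.3, 408.5, 602.4) and 337.1 ± 88.73 at 22 h (186.3, 333.6, 461.0). The groups overlapped widely. Its -0.61 ± 0.24 at 22 h was called at an adjusted p of 0.0439 (limma-voom), a call lost in 17 of the alternatives, among them leaving out the first vehicle library (-0.56, adjusted p = 0.0733). At 4 h it was not called (adjusted p = 0.285). Cyp2c68 was higher at 22 h, going from 170.6 ± 39.04 CPM (109.2, 174.4, 230.2) to 189.4 ± 29.41 (158.1, 184.4, 249.1) and 234.8 ± 31.73 (187.9, 236.3, 285.5). Its groups overlapped, and the log2 fold change at 22 h was 0.50 ± 0.13 (adjusted p = 0.00454). Cyp2c68 shares 43.3% of its stretches with Cyp2c40, Cyp2c67 and other genes, so this value is uncertain. Cyp2c70, the enzyme that makes muricholic acids in mice, had 235.5 ± 49.75, 260.8 ± 67.57 and 265.8 ± 116.3 CPM and was not called (adjusted p = 0.583 and 0.875). Its 22 h range was wide, from 73.37 to 447.4. Cyp2c23 (175.6 ± 52.53, 163.4 ± 30.51 and 188.1 ± 47.55 CPM) and Cyp2c40 (1.65 ± 0.643, 1.37 ± 0.335 and 1.61 ± 0.178 CPM) were not called either.

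The Cyp2a subfamily held both members that were higher at 4 h, and 3 of its 4 members were higher at 22 h. Cyp2a5, which oxidizes coumarin and nicotine, had 438.8 ± 151.4 CPM in vehicle (SD, n = 8; lowest 262.0, median 390.0, highest 720.1). It had 800.3 ± 117.7 at 4 h (640.1, 791.5, 992.4) and 1308 ± 334.2 at 22 h (949.1, 1248, 1827). Vehicle mouse 4 (720.1) reached into the 4 h range, and no vehicle liver reached the 22 h range. The log2 fold changes were 0.98 ± 0.17 and 1.63 ± 0.18 (limma-voom adjusted p = 5.4e-05 and 1.37e-07), and the step from 4 h to 22 h was 0.65 ± 0.18 (adjusted p = 0.00717).

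Cyp2a4, a steroid hydroxylase that is known to be higher in females, had the largest rise of the 32 members. It had 33.80 ± 7.308 CPM in vehicle (21.72, 34.39, 44.03), 158.2 ± 48.18 at 4 h (94.78, 141.3, 241.2) and 412.6 ± 349.9 at 22 h (58.58, 288.5, 1148). All 16 treated livers were above all 8 vehicle livers, and at 22 h the mice spread from mouse 6 at 58.58 to mouse 5 at 1148. The log2 fold changes were 2.28 ± 0.38 and 3.22 ± 0.39 (limma-voom adjusted p = 2.54e-05 and 6.26e-07). The step from 4 h to 22 h was 0.94 ± 0.36 and missed the threshold (adjusted p = 0.0509). Without 22 h mouse 6 it was 1.26 (adjusted p = 0.00146), and without 22 h mouse 5 it was 0.67 (adjusted p = 0.125). The pseudogene Cyp2a21-ps, with which 17.9% of the stretches of Cyp2a5 and 11.3% of those of Cyp2a4 are shared, had 0.528 ± 0.211, 0.940 ± 0.202 and 1.66 ± 0.249 CPM. Cyp2a4 is 98.4% identical in coding sequence to the more abundant Cyp2a5, with which it shares 36.1% of its stretches. Cyp2a5 was higher too, so the size of the Cyp2a4 rise is uncertain.

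Cyp2a22 was not higher at 4 h and was higher at 22 h. Its values were 43.96 ± 17.05 CPM in vehicle (21.92, 39.82, 77.36), 34.34 ± 10.66 at 4 h (23.1, 33.98, 52.55) and 102.9 ± 56.16 at 22 h (54.91, 92.79, 218.6). All 22 h livers were above all 4 h livers, while vehicle overlapped both. The log2 fold change was 1.17 ± 0.26 against vehicle (limma-voom adjusted p = 0.00117) and 1.44 ± 0.27 against 4 h (adjusted p = 0.000148). Mouse 5 was the highest 22 h liver in Cyp2a22 (218.6) as in Cyp2a4 and Cyp2a5 (1827). Cyp2a12, a testosterone hydroxylase and the 97.0% identical neighbour of Cyp2a22, had 538.0 ± 76.24, 447.4 ± 59.70 and 615.8 ± 126.0 CPM. It was not called against vehicle (-0.21 ± 0.11, adjusted p = 0.107, and 0.20 ± 0.11, adjusted p = 0.146) and rose by 0.42 ± 0.11 from 4 h to 22 h (adjusted p = 0.00406). Leaving out the first vehicle library made Cyp2a12 lower at 4 h (-0.28, adjusted p = 0.0216).

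The Cyp2a, Cyp2b and Cyp2f members stand side by side at chr7:25897658-27133660, and neighbours there moved in opposite directions. Of the 8 members in this stretch, 2 were higher and 3 lower at 4 h, and 3 were higher and 2 lower at 22 h. Cyp2b9, a female-predominant form, had 188.5 ± 74.94 CPM in vehicle (123.7, 161.1, 357.3), 64.59 ± 36.59 at 4 h (29.53, 57.96, 149.4) and 123.4 ± 106.3 at 22 h (17.7, 79.33, 328.6). At 4 h only mouse 3 (149.4) was within the vehicle range, and the 22 h livers ran from below to within it. Cyp2b9 fell by 1.57 ± 0.41 on the log2 scale at 4 h (limma-voom adjusted p = 0.00302), and at 22 h its -0.99 ± 0.40 missed the threshold (adjusted p = 0.0565). Without the first vehicle library the 22 h value was -1.07 (adjusted p = 0.0465).

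Cyp2b13, the neighbour of Cyp2b9 and also female-predominant, had 10.19 ± 10.85 CPM in vehicle (2.202, 6.845, 36.16), 1.45 ± 1.15 at 4 h (0.4057, 1.028, 3.91) and 3.68 ± 4.23 at 22 h (0.3409, 2.521, 13.68). Vehicle mouse 5 was the highest of its group in both Cyp2b9 and Cyp2b13, and 22 h mouse 8 the highest of its group in both. The log2 fold changes of Cyp2b13 were -2.63 ± 0.68 and -1.72 ± 0.57 (limma-voom adjusted p = 0.00283 and 0.0195). The 22 h call was lost without 22 h mouse 6 (-1.34, adjusted p = 0.0527). Cyp2b13 is 92.7% identical in coding sequence to the far more abundant Cyp2b9, so its values are uncertain. Cyp2b10, the gene most used as a readout of CAR, stayed near the floor of the set at 2.42 ± 0.950, 3.43 ± 3.02 and 2.12 ± 2.12 CPM. It was not called against vehicle (0.10 ± 0.52, adjusted p = 0.891, and -0.53 ± 0.56, adjusted p = 0.481). Between the times it was called lower with running numbers 1 to 12 alone (-1.89, adjusted p = 0.0389) and was 0.70 with 13 to 24 alone (adjusted p = 0.516).

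Cyp2j5 and Cyp2j6, epoxygenases that share 0.174% and 0.422% of their stretches with other genes, were among the most even members across mice. Cyp2j5 had 1095 ± 114.1 CPM in vehicle (927.9, 1131, 1280), 605.1 ± 15.94 at 4 h (573.9, 611.4, 620.0) and 688.7 ± 61.71 at 22 h (621.6, 689.8, 791.0). At 4 h the SD was 2.63% of the mean. None of the 16 treated livers overlapped vehicle, and Cyp2j5 fell by 0.80 ± 0.08 and 0.65 ± 0.08 on the log2 scale (limma-voom adjusted p = 4.09e-09 and 4.31e-07). All 22 h livers were above all 4 h livers in CPM from library totals, but the step of 0.15 ± 0.07 fitted with TMM scaling was not called (adjusted p = 0.139). With library totals in place of TMM the step was 0.18 and called (limma-voom adjusted p = 0.0242). With running numbers 13 to 24 alone it was 0.28 and called (adjusted p = 0.0393). Cyp2j6 had 141.0 ± 13.62, 100.0 ± 10.91 and 109.9 ± 7.099 CPM and fell by 0.45 ± 0.06 and 0.34 ± 0.06 on the log2 scale (adjusted p = 1.18e-06 and 0.000113). The list of arachidonic acid epoxygenases had 10 of 13 genes tested. All of these are members, so the list restates calls of the members and adds no further genes. At 4 h they counted 0 higher (beside 21.7% of all genes) and 6 lower (60%, beside 22.5%), with a median of -0.70. At 22 h they counted 0 higher (beside 17.6%) and 7 lower (70%, beside 19.2%), with a median of -0.66. The Cyp2c members Cyp2c23 and Cyp2c68 were not among the genes counted. Cyp2c23 was not called at either time (limma-voom adjusted p = 0.917 and 0.628), and Cyp2c68 was higher at 22 h.

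Cyp2f2, which activates naphthalene and in liver is a gene of the portal side of the lobule, had 803.0 ± 82.85 CPM in vehicle (642.0, 829.1, 904.0), 599.6 ± 134.8 at 4 h (388.7, 598.2, 801.2) and 639.7 ± 116.5 at 22 h (460.6, 620.7, 883.4). The groups overlapped. Its -0.40 ± 0.12 at 4 h was called (limma-voom adjusted p = 0.0106), and its -0.32 ± 0.12 at 22 h (adjusted p = 0.0422) lost the call in 13 alternatives. Among the Cyp2d members, Cyp2d10 had 475.4 ± 44.32 CPM in vehicle (415.8, 488.7, 522.4), 538.4 ± 38.09 at 4 h (488.5, 532.2, 590.8) and 632.7 ± 99.44 at 22 h (537.6, 581.3, 797.1). All 22 h livers were above all vehicle livers (0.42 ± 0.10, adjusted p = 0.00181), and the 0.23 ± 0.10 at 4 h was not called (adjusted p = 0.0568) but was in 7 alternatives. Cyp2d10 shares 40.5% of its stretches, most of them with Cyp2d11, a gene not analysed here. Cyp2d9, a male-predominant testosterone hydroxylase, had 418.9 ± 123.5, 412.6 ± 63.25 and 467.3 ± 160.7 CPM, and Cyp2d12 had 11.19 ± 2.962, 10.91 ± 1.466 and 12.70 ± 4.196. Neither was called (adjusted p = 0.802 and 0.644 for Cyp2d9, 0.895 and 0.514 for Cyp2d12).

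Cyp2r1, the liver hydroxylase of vitamin D, was lower in all 3 comparisons. It had 17.71 ± 2.081 CPM in vehicle (13.68, 17.84, 19.75), 13.78 ± 2.749 at 4 h (10.2, 13.29, 18.07) and 10.52 ± 1.982 at 22 h (7.599, 10.73, 14.02). The vehicle and 22 h livers overlapped only through the first vehicle library (13.68) and 22 h mouse 4 (14.02). The log2 fold changes were -0.30 ± 0.11 at 4 h (limma-voom adjusted p = 0.0347, lost in 11 alternatives) and -0.73 ± 0.12 at 22 h (adjusted p = 5.82e-05). The step from 4 h to 22 h was -0.42 ± 0.13 (adjusted p = 0.0122), the only lower call between the times.

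In family 1, Cyp1a2, which oxidizes caffeine and aryl amines, had 305.1 ± 51.97 CPM in vehicle (249.4, 289.9, 403.6), 248.5 ± 36.54 at 4 h (205.4, 235.6, 304.7) and 328.6 ± 55.20 at 22 h (262.7, 331.5, 404.1). The groups overlapped, and it was not called against vehicle (limma-voom adjusted p = 0.102 and 0.44). Its step from 4 h to 22 h was 0.36 ± 0.12 (adjusted p = 0.0219). This call was lost without 4 h mouse 1 (0.32, adjusted p = 0.0522) and with either part of the running numbers alone (adjusted p = 0.0776 for 1 to 12 and 0.272 for 13 to 24). Cyp1a1, the classic AHR target, was at 1.62 ± 0.598, 1.37 ± 0.441 and 1.23 ± 0.449 CPM and was not called (adjusted p = 0.479 and 0.206). Cyp1b1 had 5.33 ± 2.95 CPM in vehicle (3.504, 4.178, 12.34), 3.20 ± 0.903 at 4 h (1.626, 3.075, 4.567) and 2.97 ± 1.39 at 22 h (0.9375, 3.136, 4.805). The highest vehicle value, 12.34, was that of the first vehicle library. Cyp1b1 fell by 0.96 ± 0.29 on the log2 scale at 22 h (adjusted p = 0.0123), and its -0.69 ± 0.28 at 4 h missed the threshold (adjusted p = 0.0517). The 22 h call was lost with sample quality weights (-0.50, adjusted p = 0.0704) and with running numbers 1 to 12 alone (-0.83, adjusted p = 0.167). At 4 h Cyp1b1 was called lower in 14 alternatives, and without the first vehicle library its value was -0.45 (adjusted p = 0.14).

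**Figure D4:**
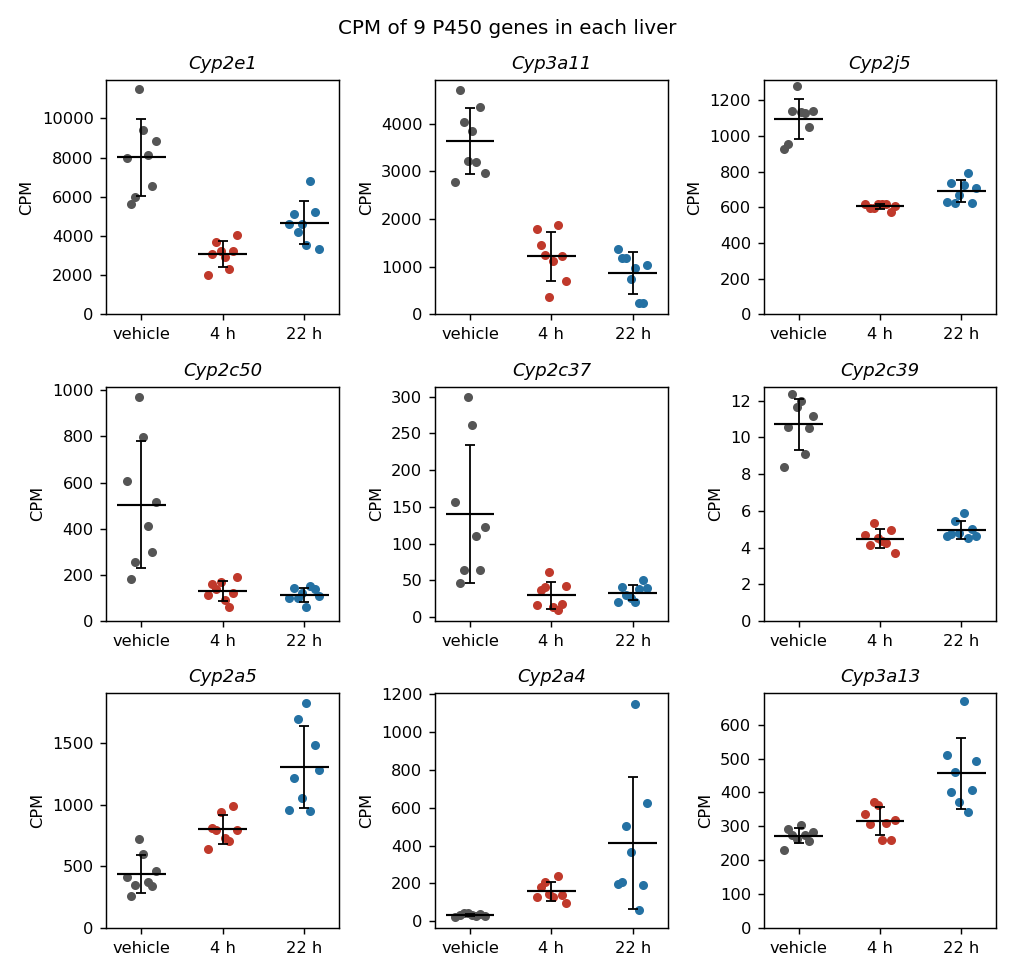
CPM of 9 members in each liver (y axes, linear), with 1 point per mouse, 8 mice per group, and black bars for mean and SD. The first 6 panels show members lower after IUB288, such as Cyp2j5 at 573.9 to 620.0 CPM at 4 h against 927.9 to 1280 in vehicle, and the last 3 show members higher at 22 h, with Cyp2a4 from 58.58 to 1148 CPM among the 22 h livers.

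Set per kilobase of transcript, which takes transcript length into account, the order of the members changed with treatment. How reads of shared stretches were counted is not known. The places of members that share many, such as Cyp2a5 (40.8%), Cyp2d10 (40.5%) and Cyp2a4 (38.0%), are therefore uncertain. In vehicle the mean levels per kilobase were Cyp2e1 at 4369 ± 1065 CPM per kb (SD, n = 8), Cyp3a11 at 1551 ± 296.3, Cyp2j5 at 466.8 ± 48.66 and Cyp2f2 at 430.3 ± 44.40. Cyp2j5 and Cyp2f2 lay within 1 SD of each other. Cyp2a5 was in the 10th place, at 218.0 ± 75.19, within 1 SD of Cyp2d9 at 244.7 ± 72.15. At 4 h the order was Cyp2e1 (1672 ± 360.3), Cyp3a11 (519.3 ± 217.5), Cyp2a5 (397.6 ± 58.48) and Cyp2d10 (326.7 ± 23.12), and Cyp3a11 and Cyp2a5 lay within 1 SD of each other. At 22 h Cyp2e1 (2550 ± 593.4) was followed by Cyp2a5 (649.6 ± 166.0). Cyp2d10 (383.9 ± 60.34), Cyp3a11 (371.4 ± 186.3) and Cyp2a12 (366.3 ± 74.94) came next, within 1 SD of each other. Cyp2a4 reached 237.4 ± 201.3 and the 9th place. Cyp1a1, Cyp1b1, Cyp2c40 and Cyp3a44 were at most 1.24 CPM per kb in each group.

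The counts of the gene lists that follow stand beside 21.7% of all genes higher and 22.5% lower at 4 h, and 17.6% and 19.2% at 22 h. Of 32 regulators of these genes tested, 7 were higher (21.9%) and 15 lower (46.9%) at 4 h, with a median log2 fold change of -0.22. At 22 h, 9 were higher (28.1%) and 6 lower (18.8%), with a median of 0.06. The shares higher at 4 h and lower at 22 h were near those of all genes. Nr1i3, which encodes CAR, had 126.9 ± 24.14 CPM in vehicle (SD, n = 8; lowest 103.0, median 115.1, highest 168.1), 31.55 ± 5.021 at 4 h (22.22, 32.92, 38.13) and 78.99 ± 25.08 at 22 h (51.34, 72.34, 118.4). The 4 h livers lay below all others, with a log2 fold change of -1.97 ± 0.18 (limma-voom adjusted p = 2.15e-09). At 22 h it was -0.70 ± 0.17 (adjusted p = 0.00191), and the step between the times was 1.26 (adjusted p = 4.47e-06).

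Nr1i2, which encodes PXR, was higher at 4 h and not called at 22 h. It had 105.3 ± 12.66, 143.2 ± 17.56 and 98.33 ± 5.985 CPM, with log2 fold changes of 0.50 ± 0.09 (limma-voom adjusted p = 8.59e-05) and -0.07 ± 0.09 (adjusted p = 0.592). Ahr was lower at both times, at 75.95 ± 10.03, 48.01 ± 5.994 and 49.86 ± 9.26 CPM (-0.61 ± 0.10 and -0.59 ± 0.10, adjusted p = 2.52e-05 and 7.42e-05). Its partner Arnt was lower at 4 h (-0.41 ± 0.06, adjusted p = 1.43e-06) and not called at 22 h (-0.08 ± 0.06, adjusted p = 0.275). Hnf4a, a master factor of hepatocyte genes, was higher at both times, at 586.0 ± 57.29, 835.9 ± 87.83 and 971.1 ± 54.88 CPM (0.56 ± 0.08 and 0.75 ± 0.08, adjusted p = 2.86e-06 and 1.18e-07), with no overlap with vehicle. Foxa3 was higher at both times too (0.83 ± 0.13 and 0.84 ± 0.13).

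The coactivator gene Ppargc1a was higher at 4 h and not called at 22 h (0.04, limma-voom adjusted p = 0.856). It had 27.70 ± 4.713 CPM in vehicle, 133.1 ± 36.49 at 4 h and 28.32 ± 3.077 at 22 h, and no 4 h liver overlapped the others (2.28 ± 0.14, limma-voom adjusted p = 1.47e-12). The clock output factors Dbp (-1.15 ± 0.12), Hlf (-0.86 ± 0.07) and Tef (-0.24 ± 0.07) were lower at 4 h, as was Nr0b2, which encodes the repressor SHP (-1.87 ± 0.32). At 22 h Hlf was lower (-0.20 ± 0.07, adjusted p = 0.0255), and Dbp and Tef were not called. The growth hormone mediator Stat5b was not called at either time, at 68.17 ± 5.427, 64.07 ± 8.47 and 71.17 ± 8.461 CPM. Bcl6, which represses female-type genes in male liver, was lower at 4 h (-1.38 ± 0.40, adjusted p = 0.00642) and not called at 22 h (0.47 ± 0.34, adjusted p = 0.287).

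**Figure D5:**
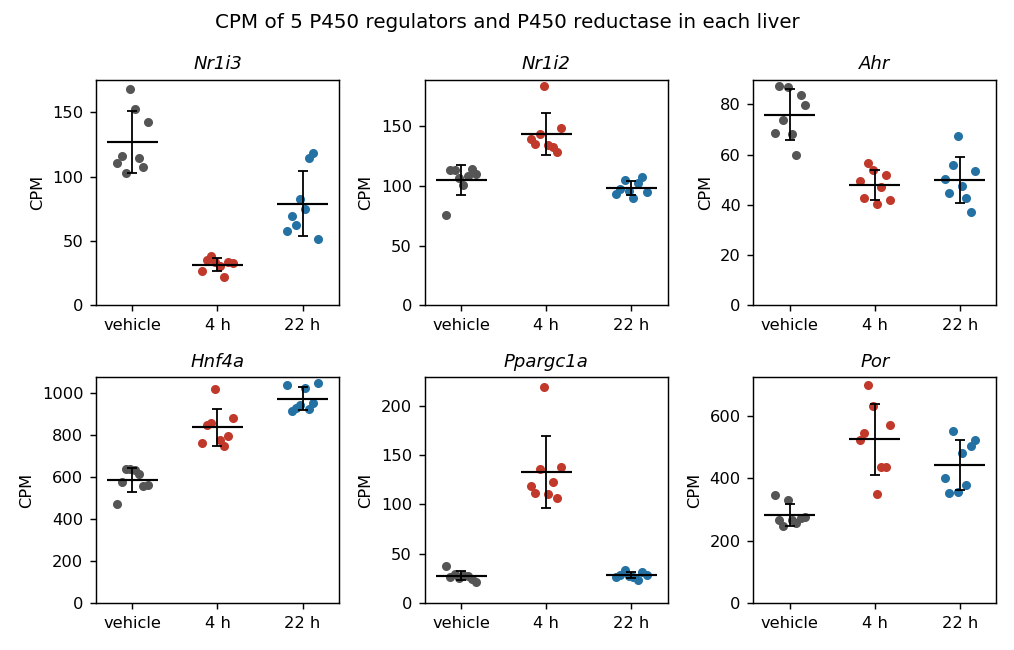
CPM of Nr1i3 (CAR), Nr1i2 (PXR), Ahr, Hnf4a, Ppargc1a and Por in each liver (y axes, linear), with 1 point per mouse, 8 mice per group, and black bars for mean and SD. Nr1i3 is lowest at 4 h (22.22 to 38.13 CPM), and Por is above the vehicle range at both times.

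Por, the reductase that feeds electrons to all these enzymes, was higher, at 281.9 ± 35.79 CPM in vehicle (245.7, 269.7, 345.0), 525.0 ± 114.5 at 4 h (348.9, 534.8, 701.3) and 444.1 ± 80.67 at 22 h (352.3, 441.7, 552.8). No treated liver overlapped vehicle (0.93 ± 0.13 and 0.67 ± 0.13, limma-voom adjusted p = 3.77e-06 and 0.000454). In the list of electron partners and heme enzymes, 4 of 15 genes tested were higher (26.7%) and 6 lower (40.0%) at 4 h. At 22 h, 3 were higher and 3 lower (20.0% each), near the shares of all genes. Cyb5r3, which reduces cytochrome b5, was lower at both times (-0.59 ± 0.09 and -0.61 ± 0.09), and so was Blvrb, a biliverdin reductase (-0.57 ± 0.10 and -0.43 ± 0.10).

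Genes outside the P450s that CAR, PXR or AHR are known to induce form another list. Of 24 tested, 8 were higher (33.3%) and 6 lower (25%) at 4 h, with a median of 0.07, and 9 were higher (37.5%) and 6 lower (25%) at 22 h, with a median of 0.15. The share lower at 4 h was near that of all genes (22.5%). The glucuronosyltransferases Ugt1a9 (40.62 ± 13.21, 227.5 ± 28.17 and 230.1 ± 47.43 CPM) and Ugt1a1 (298.1 ± 60.69, 114.5 ± 15 and 135.9 ± 20.68 CPM) moved in opposite directions, by 2.63 ± 0.16 and -1.32 ± 0.12 at 4 h (limma-voom adjusted p = 1.47e-12 and 1.66e-09). They share their last exons, so the split of their counts is uncertain. The sulfotransferase Sult1a1 was higher at both times (1.59 ± 0.17 and 1.69 ± 0.17).

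Pericentral P450 genes, those higher near the central vein, counted 2 higher and 5 lower of 10 at 4 h and 2 higher and 6 lower at 22 h, with medians of -0.96 and -0.71. The higher ones were Cyp2a4 and Cyp2a5. Pericentral genes outside the P450s counted 3 higher and 8 lower of 18 at 4 h and 3 higher and 7 lower at 22 h, with medians of -0.31 and -0.21. Rgn, which encodes regucalcin, was lower at both times (-1.65 ± 0.15 and -1.70 ± 0.15), while Oat, ornithine aminotransferase, was higher (1.94 ± 0.23 and 2.06 ± 0.23), as was Znrf3, a brake on Wnt signalling (0.90 ± 0.05 and 0.45 ± 0.06).

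Of the P450 genes known to be higher in female liver, 7 were tested, with 1 higher and 5 lower at 4 h and 1 higher and 4 lower at 22 h. The higher one was Cyp2a4, and the lower ones at 4 h were Cyp2b9, Cyp2b13, Cyp2c39, Cyp3a44 and Cyp2c69. Cyp2c69 was below the limit for members, at 0.382 CPM. Of 17 growth hormone targets known to be higher in male liver, 3 were higher (17.6%) and 0 lower at 4 h, and 3 were higher (17.6%) and 2 lower (11.8%) at 22 h. The share higher at 22 h equals that of all genes. The 3 with the smallest p were Egfr (0.46 ± 0.24 at 4 h, not called, and 1.27 ± 0.24 at 22 h), Elovl3 (1.81 ± 0.38 and 0.61 ± 0.39, the second not called) and Serpina1e (1.89 ± 0.55 and 2.57 ± 0.55).

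The 22 P450 genes of other families and pseudogenes that were tested counted 7 higher and 4 lower at 4 h and 7 higher and 3 lower at 22 h, with medians of 0.02 and 0.12, where the members had -0.31 and -0.38. Cyp17a1, a steroid-synthesis enzyme, was higher at both times (2.42 ± 0.28 and 2.86 ± 0.28, limma-voom adjusted p = 9.51e-08 and 2.5e-08). Cyp27a1, of the alternative bile acid pathway, was lower (-0.74 ± 0.06 and -0.79 ± 0.06), and so was Cyp51, of sterol synthesis (-1.41 ± 0.23 and -2.30 ± 0.24).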

How the data were processed

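Whole liver was taken from 24 mice, 8 in each group, and mRNA libraries were made from total RNA of frozen tissue with the KAPA mRNA HyperPrep kit, per the labels' protocols. Reads were trimmed with cutadapt and aligned with GSNAP to GRCm38, per the submitters' processing notes. The counting tool, its annotation, its treatment of shared reads and the use of strand are not given in the sources used here. The deposited table holds unnormalized whole-number read counts per gene, with other columns for identifiers, from 13985780 to 44070917 per library. Its layout was not accepted as counts by a check of units, so edgeR and DESeq2 were not run.

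Counts were tested with limma-voom (limma 3.58.1, R 4.3.3) on all 24 libraries with TMM scaling, an expression filter (count of 10 in a library of median size, total of 15), and Benjamini-Hochberg adjustment over 11508 genes at 0.05. The fit had 21 residual and 4.08 prior degrees of freedom. CPM were taken from library totals. The script was checked on simulated counts. The depth limits the members of lowest count most, among them Cyp2b13 at a mean of 5.10 CPM. Counting error can also be a large part of a narrow spread. Cyp2c39, for example, had an SD of 11.1% of the mean at 4 h, with 113 counts in 4 h mouse 8. The part of counting error in the spread between mice was not measured.

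The members and all lists were chosen with earlier results of these data known. Every member is described. Values in all groups were planned for the 12 members of highest mean CPM and the 8 called members of largest log2 fold change in each comparison. From the other lists, the 3 called genes of smallest p and at least 1 CPM are named, and any regulator may be. Further genes named with their values (Cyp2a21-ps, Cyp2c69) were chosen after the values were seen. Copies were found with GENCODE vM21 transcripts (Biopython 1.88) by coding sequence, since no protein table was used here. Promoters and gene positions came from RefSeq (GRCm38.p6).

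Replicate numbers are shared between groups, so a fit with a replicate block was an alternative. The others were library totals or median-of-ratios scaling, other filters, sample quality weights, limma-trend, the 16 libraries of a comparison alone, each part of the running numbers in the library names (1 to 12 and 13 to 24), looser and stricter rules for members, and leaving out each library. No pair of libraries within a group agreed within sampling noise.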

Additional observations from a re-analysis of the deposited data

Results flagged for a closer look

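In 96 sets of 8 livers (32 members in 3 groups), the highest or lowest liver was checked for a gap to the rest above Dixon's 95% value, which chance exceeds in about 1 in 20 sets. A single high liver was found in 8 sets. For Cyp2b9 these were vehicle mouse 5 at 357.3 CPM (the others 123.7 to 211.0) and 4 h mouse 3 at 149.4 CPM (29.53 to 68.86). For Cyp2b13 they were vehicle mouse 5 at 36.16 CPM (2.202 to 11.3) and 22 h mouse 8 at 13.68 CPM (0.3409 to 4.541). The same 22 h mouse 8 had the highest Cyp2b10, at 6.975 CPM (0.6862 to 2.877). Cyp2f2 was 883.4 CPM in 22 h mouse 2 (460.6 to 660.4), and Cyp3a44 was 3.79 CPM in vehicle mouse 7 (1.592 to 2.626), the shallowest library. Cyp1b1 was 12.34 CPM in vehicle mouse 1 (3.504 to 6.188), the library with high Ucp1.

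The log2 change from vehicle differed between 22 h and 4 h, by the limma-voom test of the difference itself, in 7 members. The difference was 1.44 for Cyp2a22, 0.65 for Cyp2a5, 0.57 for Cyp2e1, 0.48 for Cyp3a13, 0.42 for Cyp2a12, 0.36 for Cyp1a2 and -0.42 for Cyp2r1.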

How the results depend on the processing

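Of the 96 log2 fold changes of members, 69 were followed through 35 alternatives each: those called, those of at least 0.5 in size and those of the 12 members of highest mean. Among these, 1409 values of called members kept their call and 61 lost it, while of members not called 861 stayed so, 66 gained a call and 18 changed sign. The members higher at 4 h numbered 4, against 2, when the third group was left out of the fit, and also 4 with running numbers 1 to 12 alone. With running numbers 1 to 12 alone, 8 members were lower at 22 h and 1 was higher at 22 h than at 4 h, where fewer samples enter. Leaving out 1 library at a time gave 2 to 4 higher and 12 to 14 lower at 4 h, 6 to 7 higher and 12 to 15 lower at 22 h, and 5 to 7 higher and 1 to 2 lower between the times. Among members sharing at most 10% of their stretches, an alternative chosen after seeing the data with fewer genes counted, the numbers were 0 and 6 at 4 h, 1 and 8 at 22 h, and 3 higher and 1 lower (Cyp2r1) between the times.

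With the replicate block, 2 members were higher and 15 lower at 4 h, 6 and 15 at 22 h, and 6 and 1 between the times, and Cyp2c54 was called lower at both times (-1.69 and -1.79, limma-voom adjusted p = 0.0307 and 0.0276). The block also called Cyp1b1 lower at 4 h (-0.72, adjusted p = 0.0201) and Cyp2b9 lower at 22 h (-0.97, adjusted p = 0.0445), and Cyp2c29 lost its call at 22 h (-0.61, adjusted p = 0.0545). It changed no other call among those followed. The values did not show that the numbers pair the mice, though a low correlation cannot exclude it. Of 24 same-number pairs, 2 correlated above 0.1 (-0.219 to 0.134, median -0.00105), and 4 libraries matched best a library of their own number.

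Some members not called changed sign. Cyp2d9 was -0.059 at 4 h and -0.0079 at 22 h with quality weights, and -0.14, -0.22 and -0.079 (22 h against 4 h) with running numbers 13 to 24 alone. Leaving out 1 library gave Cyp2d9 -0.040 to 0.16 at 4 h and -0.028 to 0.23 between the times, and Cyp2c70 -0.074 to 0.29 at 22 h and -0.25 to 0.12 between the times. Between the times, Cyp3a11 was 0.023 and Cyp2f2 -0.013 with running numbers 1 to 12 alone, and Cyp2b10 was -1.89 and called lower with 1 to 12 alone (adjusted p = 0.0389) and 0.70 with 13 to 24 alone. Without 4 h mouse 4, Cyp3a11 was lower at 22 h than at 4 h (-0.84, adjusted p = 0.0446). The cause was not tested. Depth limits Cyp3a44, Cyp2b13, Cyp2b10, Cyp2c40 and Cyp1a1 most.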
